A study of Ambystoma mexicanum with 8 samples.

Results

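The transcripts described here are a pair of type II keratin contigs of the axolotl limb, 2 of the 91843 contigs of a de novo transcriptome. They are TR19344|c0_g1_i1, whose closest SwissProt entry is keratin 6A (K2C6A), and TR25248|c0_g1_i1, whose closest entry is a keratin 5 (K2C5). They were chosen by contig name from the study's own list of transcripts that differed between the groups below, so that contrast is described for them and not tested. The names rest on the study's annotation, and the contigs were not compared with each other by sequence. RNA was sequenced from the stump of 8 limbs of wild-type, leucistic Ambystoma mexicanum, a salamander that regrows amputated limbs. The 4 control limbs had been amputated 1 time, and the 4 repeatedly amputated limbs had gone through 5 earlier rounds before a 6th amputation. The last cut was made slightly proximal to the earlier plane, and control limbs were cut at the same level. Both groups were sampled 3 days after the last amputation, in siblings matched for age and size. The repeatedly amputated limbs were chosen by the study because they had failed to regenerate, so the number of amputations and that failure cannot be told apart in this comparison. Libraries are called by the names of their columns, Control1, Control3, Control4 and Control6 against MR2, MR5, MR6 and MR14, which give the group but not the animal.

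Keratins are the intermediate filament proteins of epithelial cells. A type II keratin forms filaments only together with a type I partner, and the filaments are anchored to desmosomes and hemidesmosomes. In mammals keratin 5 marks the basal layer of the epidermis, while keratin 6A is low in most resting skin and is induced in keratinocytes at a wound edge. After limb amputation in salamanders, epidermal cells migrate over the stump within the first day and form the wound epidermis. The sample was the tissue just proximal to the cut, which can hold skin, muscle, skeleton, nerve and blood together, so for every transcript below fewer cells of a type and less RNA per cell cannot be told apart.

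The counts of a library summed to between 15596527 and 18437103, and 32757 contigs passed the filter on low counts. Shares given below as of all contigs are shares of these tested contigs. Across these, edgeR's quasi-likelihood test called 4 contigs at an FDR under 0.05 (0.0122%), 2 of them lower after repeated amputation (0.00611%), and 3648 had an unadjusted p under 0.05 (11.1%). The study, which used edgeR at the same FDR without naming the test, listed 912 differing transcripts. The cause of that difference was not tested. The 120 contigs of a muscle list summed to between 102 and 1376 CPM in control limbs and between 686 and 15685 CPM in repeatedly amputated limbs, where CPM is counts per 1000000 of the TMM-adjusted library size. MR6, the lowest of its group, lay below Control4 in this sum. No library was left out, and values without single libraries are given where they change a result.

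K2C6A was abundant in 3 of the 4 control limbs and low in the remaining control limb and in all repeatedly amputated limbs. It had 889 CPM in Control1, 787 in Control3, 1329 in Control4 and 102 in Control6. In the repeatedly amputated limbs it had 27.6 CPM in MR14, 35.9 in MR2, 12.5 in MR5 and 96.4 in MR6. Control6 was thus nearer to the repeatedly amputated limbs than to the other controls, and MR6 stood above the other limbs of its group. The groups did not overlap, but the lowest control limb was only 1.05 times the highest repeatedly amputated limb. Of all contigs tested, 3.08% had every control limb above every repeatedly amputated limb. Without Control6 this ratio of neighbours was 8.19, and without MR6 it was 2.82.

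As a group, control limbs had 777 ± 508 CPM of K2C6A (SD, n = 4) and repeatedly amputated limbs 43.1 ± 36.8 CPM (SD, n = 4). The ratio of the means was 18.0-fold, a fitted log2 difference of -4.17, and the ratio of the medians was 26.4-fold. With 1 library left out in turn the log2 difference lay between -4.93, without MR6, and -3.78, without Control4. A fitted fall of 8-fold or more was found for 0.14% of the contigs tested, and both keratins were among them. Since the contigs were chosen from this contrast, nothing is read from that share.

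K2C5 varied most among the control limbs, which included both its highest and its lowest value. It had 249 CPM in Control1, 3076 in Control3, 52.8 in Control4 and 780 in Control6. In the repeatedly amputated limbs it had 77.5 CPM in MR14, 95.7 in MR2, 139 in MR5 and 141 in MR6. The groups overlapped, because Control4 lay below all 4 repeatedly amputated limbs while the other controls lay above them. Of the CPM summed over the control limbs, 74.0% was that of Control3.

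Control limbs had 1040 ± 1392 CPM of K2C5 (SD, n = 4), an SD larger than the mean, and repeatedly amputated limbs had 113 ± 31.7 CPM (SD, n = 4). The means differed 9.18-fold, a fitted log2 difference of -3.20. That figure leaned on Control3, for the medians differed 4.38-fold and the means of the log2 values 3.84-fold. Without Control3 the fitted log2 difference was -1.67, and without Control4 it was -3.59 and the groups no longer overlapped.

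**Figure D1:**
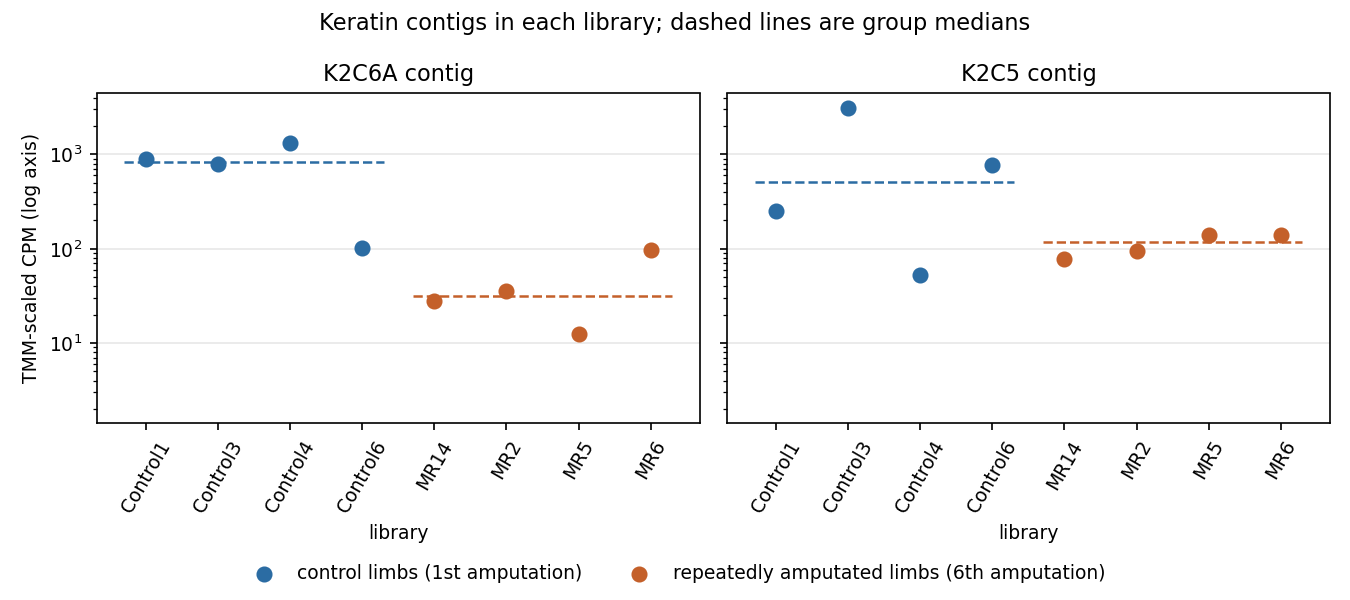
CPM of K2C6A and K2C5 in each library on a log axis, with control limbs in blue, repeatedly amputated limbs in orange and a dashed line at each group median. K2C6A ranged from 102 to 1329 CPM in control limbs and from 12.5 to 96.4 CPM in repeatedly amputated limbs, and K2C5 ranged from 52.8 to 3076 CPM in control limbs, around the 77.5 to 141 CPM of the repeatedly amputated limbs.

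The balance between the keratins was compared per transcript length, as FPKM. K2C6A was 2.61 times K2C5 in Control1 and 18.5 times K2C5 in Control4, whereas it was 0.188 times K2C5 in Control3 and 0.0956 times K2C5 in Control6. In the repeatedly amputated limbs the ratio was 0.261 in MR14, 0.275 in MR2, 0.0656 in MR5 and 0.503 in MR6. Control limbs therefore fell on both sides of an equal level, and K2C5 was the higher contig in every repeatedly amputated limb. The ratio spanned 193-fold across control limbs and 7.66-fold across repeatedly amputated limbs. On the log2 scale it was -0.05 ± 3.51 in control limbs and -2.18 ± 1.24 after repeated amputation (SD, n = 4 each). The difference of -2.13 was smaller than the SD of the control limbs, and it was -0.71 without Control4 and -3.24 without Control6.

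Control4 had the most K2C6A and the least K2C5 of the control limbs, and Control6 had the least K2C6A. The full order of the control limbs was Control4, Control1, Control3 and Control6 from high to low for K2C6A, and Control3, Control6, Control1 and Control4 for K2C5. In Control1 and Control4, K2C6A made up 72.3% and 94.9% of the summed FPKM of the pair. In Control3 and Control6 it made up 15.8% and 8.72%. Over the 8 libraries, after centring on the group means, the log2 CPM of K2C6A and of K2C5 had a Pearson correlation of -0.31, which is given as a description.

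**Figure D2:**
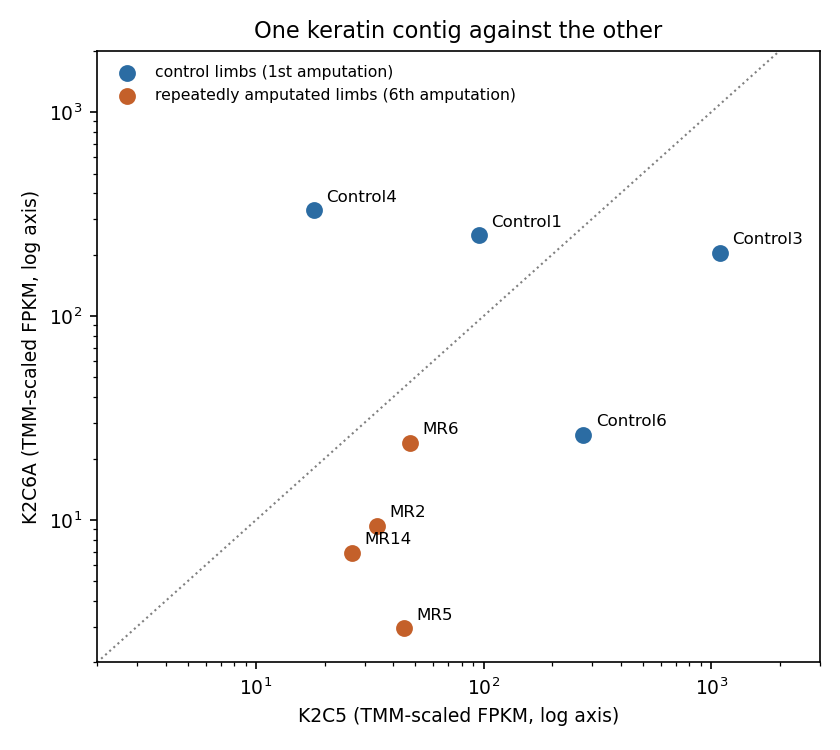
FPKM of K2C6A against FPKM of K2C5, each point a library, both axes logarithmic, with the line of equal level. Control1 and Control4 lie on the K2C6A side of the line, and Control3, Control6 and all 4 repeatedly amputated limbs lie on the K2C5 side.

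The sum of the pair did not overlap between the groups, and on the log2 scale it varied less among control limbs than either contig did. The summed CPM was 1138 in Control1, 3864 in Control3, 1382 in Control4 and 881 in Control6. In the repeatedly amputated limbs it was 105 in MR14, 132 in MR2, 152 in MR5 and 237 in MR6. The lowest control limb had 3.72 times the highest repeatedly amputated limb. Of single contigs tested, 3.08% had every control limb above every repeatedly amputated limb, and this pair was chosen on that contrast. The SD of the log2 sum was 0.94 in control limbs, against 1.66 for K2C6A and 2.49 for K2C5 alone. On the CPM scale the SD there was 76.0% of the mean for the sum and 65.4% for K2C6A. In repeatedly amputated limbs the SD of the log2 sum, 0.49, was above the 0.42 of K2C5 and below that of K2C6A. The larger contig sets such a sum, so no compensation between the contigs is read from it. Control limbs had 1816 ± 1380 CPM and repeatedly amputated limbs 156 ± 57.1 CPM (SD, n = 4 each), an 11.6-fold ratio of means that became a log2 difference of -2.86 without Control3 and of -3.80 without MR6. The pair took between 0.0884% and 0.397% of all counts of a control limb and between 0.0104% and 0.0221% of a repeatedly amputated limb.

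**Figure D3:**
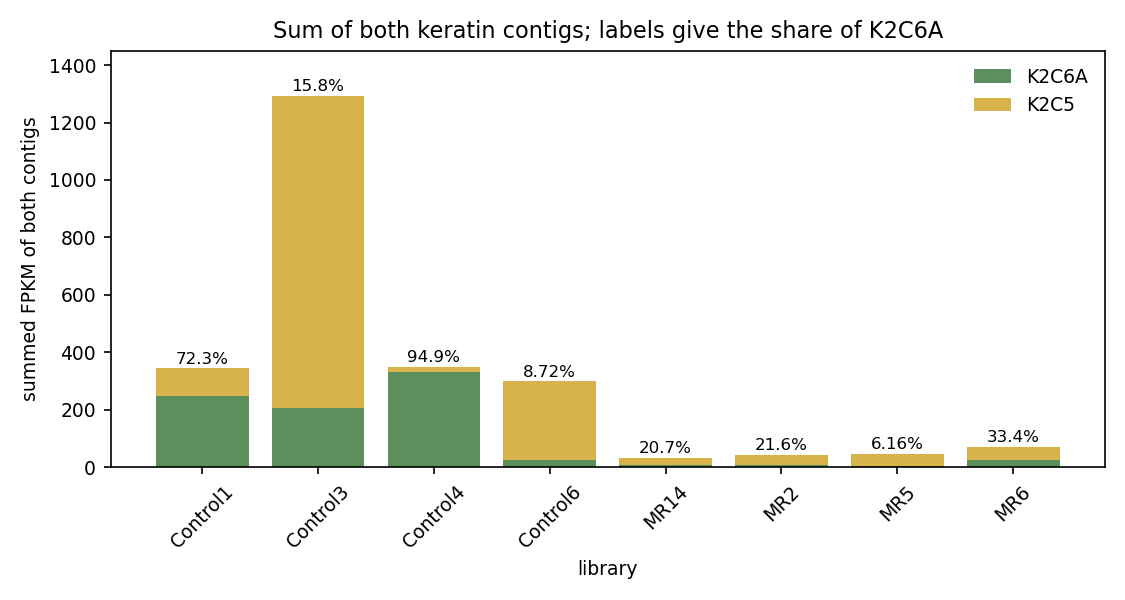
Summed FPKM of K2C6A and K2C5 in each library, drawn as stacked bars from 0 and labelled with the share of K2C6A. The control limbs reach 300.3 to 1294 FPKM and the repeatedly amputated limbs 33.3 to 71.4 FPKM, and the contig that fills most of the bar changes from one control limb to the next.

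By FPKM, K2C6A ranked between 304 and 2429 among all 91843 contigs in control limbs and between 2697 and 16993 in repeatedly amputated limbs. K2C5 ranked between 138 and 3355 in control limbs and between 1492 and 2435 in repeatedly amputated limbs. Every repeatedly amputated limb thus ranked K2C6A below every control limb, whereas the ranks of K2C5 in control limbs enclosed those of the repeatedly amputated limbs. Control6 and MR6 were close, since K2C6A had 1708 counts in Control6 (exact 95% Poisson interval 1628 to 1791) and 1613 in MR6 (1535 to 1694). These intervals overlapped, but they are of counts before scaling between libraries, so they do not test the order of FPKM. Control6 was 1.05 times MR6 in CPM and 1.10 times MR6 in FPKM. The lowest count of either contig was 196, for K2C6A in MR5, with an exact 95% Poisson interval of 169.5 to 225.4, and such intervals cover counting error only.

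Spread between limbs of a group was wide for both contigs in control limbs and for K2C6A also after repeated amputation. The SD of log2 CPM in control limbs was 1.66 for K2C6A and 2.49 for K2C5, while the median contig tested had 0.30. Only 4.97% of the contigs tested had a larger SD than K2C6A in control limbs, and 2.15% a larger SD than K2C5. In repeatedly amputated limbs the SD was 1.21 for K2C6A, which 7.48% of contigs exceeded, and 0.42 for K2C5, which 38.8% exceeded. The dispersion that edgeR estimated for each contig corresponded to a variation between limbs of 76.4% for K2C6A and 92.2% for K2C5. It was 4.43 and 6.43 times the trend for contigs of like abundance.

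Component TR19344 of the assembly held 3 contigs, and component TR25248 held K2C5 alone. The contig TR19344 c1_g1_i1, which has no protein name in the sources used here, did not share the pattern of K2C6A. It had between 10.7 and 14.7 CPM in control limbs and between 11.2 and 12.9 CPM in repeatedly amputated limbs. Its log2 difference was -0.09 (SE 0.127), with an FDR of 0.847 by edgeR's quasi-likelihood test and between 0.638 and 1 under the alternatives. The remaining contig, TR19344 c2_g1_i1, had between 2 and 8 counts in a control limb and at most 3 in a repeatedly amputated limb, and it did not pass the filter.

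Among 257 contigs with a protein name that passed the filter, the patterns most like K2C5 belonged to PIGR, PINLY, TGM4 and ZN185, the last an actin-associated LIM protein. Likeness was the Pearson correlation of log2 CPM over the 8 libraries after centring on the group means, and it is a description, since all contigs of a library share its depth and dissection. All 257 owed their names to the study's table of differing transcripts, so the search was not over a neutral set. It was 0.96 and 0.85 for the ZN185 contigs TR29056 c4_g1_i4 and TR29056 c4_g1_i3, 0.90 for PIGR, 0.84 for the PINLY contig TR26416 c10_g1_i1 and 0.79 for TGM4. Without centring it was -0.23 and -0.14 for the ZN185 contigs, 0.92 for PIGR, 0.89 for PINLY and 0.85 for TGM4. Over all 32757 contigs tested, 18 were at least as alike to K2C5 as the closest ZN185 contig, and 643 as TGM4. Another PINLY contig, TR4471 c0_g1_i1, went the other way between the groups. It had 2.89 to 3.79 CPM in control limbs and 4.98 to 24.9 CPM in repeatedly amputated limbs. K2C5 spread far more among control limbs (SD of log2 CPM 2.49) than among repeatedly amputated limbs (0.42), so control limbs weigh most in this measure. The ZN185 contigs followed K2C5 among control limbs but not between the groups. In MR14, MR2, MR5 and MR6 TR29056 c4_g1_i4 stayed at 59.8, 56.2, 60.5 and 60.9 CPM, while K2C5 had 77.5, 95.7, 139 and 141. TGM4 was lowest in MR5 and highest in MR14, so it did not follow K2C5 there either. The PINLY contig TR26416 c10_g1_i1 had 0.388, 1.28, 1.33 and 0.418 CPM in MR14, MR2, MR5 and MR6, so it was low in MR6, where K2C5 was highest. Among control limbs it was higher in Control6 (49.3 CPM) than in Control3 (36.0 CPM), unlike K2C5.

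PIGR, the receptor that carries polymeric antibodies across mucosal epithelium, had 7.11 CPM in Control1, 15.3 in Control3, 0.808 in Control4 and 8.15 in Control6. In repeatedly amputated limbs PIGR had between 0.518 and 2.09 CPM. TGM4, a transglutaminase known from the mammalian prostate, had 124 CPM in Control3 and 46.9 in Control6, but 0.481 in Control1, 0.751 in Control4 and at most 1.42 CPM in any repeatedly amputated limb. Among control limbs, PIGR was lowest in Control4, as K2C5 was, and TGM4 was near its lowest there.

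Control3 and Control6 also stood together in a list of 18 mucin and secretory transcripts. For 11 of the 18 both limbs were above Control1 and Control4, and 9 of these 11 had at most 1 count in Control1 and in Control4. Among contigs that passed the filter this order was found for 20.1%. Of the 11, only PIGR and the PINLY contig TR26416 c10_g1_i1 passed the filter, so that share is not a background for the 11. Several of the 11 were contigs of the same component, TR26098. The pattern was noticed after the values were seen. K2C5 itself had in the lower of Control3 and Control6 3.13 times the CPM of the higher of Control1 and Control4. That gap was reached by 0.473% of the contigs tested, but the split was taken from the values, so nothing is read from that share. The 18 transcripts summed to 183 CPM in Control1, 754 in Control3, 47.8 in Control4 and 178 in Control6, and to between 39.9 and 359 CPM in repeatedly amputated limbs. In MR5, which had the highest mucin sum of its group, K2C5 had 139 CPM. The sum rested on different contigs in different limbs. The MUC5A contig TR26414 c2_g1_i1 had 255 CPM in MR5 but 2.49 in Control3. The FUCL5 contig TR12888 c0_g1_i1 had 396 CPM in Control3 and 156 in Control1 but 24.8 in MR5. Of the 7 that passed the filter, none had an FDR under 0.05 by edgeR's quasi-likelihood test, and at an unadjusted p under 0.05 there were 4 lower and 3 higher (4.67% and 6.47% of all contigs). By edgeR's exact test 3 passed (1.14% of all contigs) and by DESeq2's Wald test 5 (2.32%), which gave no adjusted p for 1 of the 7. The list came from the study's table of differing transcripts, so these calls are not independent evidence. Of the 18, 5 were at 0 in every repeatedly amputated limb, and the part of secretory epithelium in the K2C5 values was not tested.

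For K2C6A the most alike patterns after centring, in the same search, were weaker. They belonged to P3H2, a collagen prolyl hydroxylase, at 0.73, to the matrix protein MXRA5 at 0.64, to LORF2, a retrotransposon protein, at 0.63, to the microfibril protein FBN1 at 0.61 and to the immunoglobulin chain IGHM at 0.59. Without centring these were -0.50, -0.68, -0.28, -0.57 and 0.90, so of these 5 only IGHM also followed K2C6A between the groups. Over all contigs tested, 944 were at least as alike to K2C6A as P3H2, and 2451 as IGHM, so these names do not mark contigs that stood out. The LORF2 contig was TR15176 c10_g2_i2. Other LORF2 entries of the study's table went in both directions between the groups. IGHM had between 499 and 844 CPM in control limbs and between 148 and 276 CPM in repeatedly amputated limbs. The gap that set K2C6A apart in control limbs was between Control6 and the others, which had at least 7.75 times its CPM. A gap of this size in this split was found in 1.04% of the contigs tested, and Control6 was the lowest control limb in 23.2%. The split was taken from the values of K2C6A, so nothing is read from the 1.04%.

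**Figure D4:**
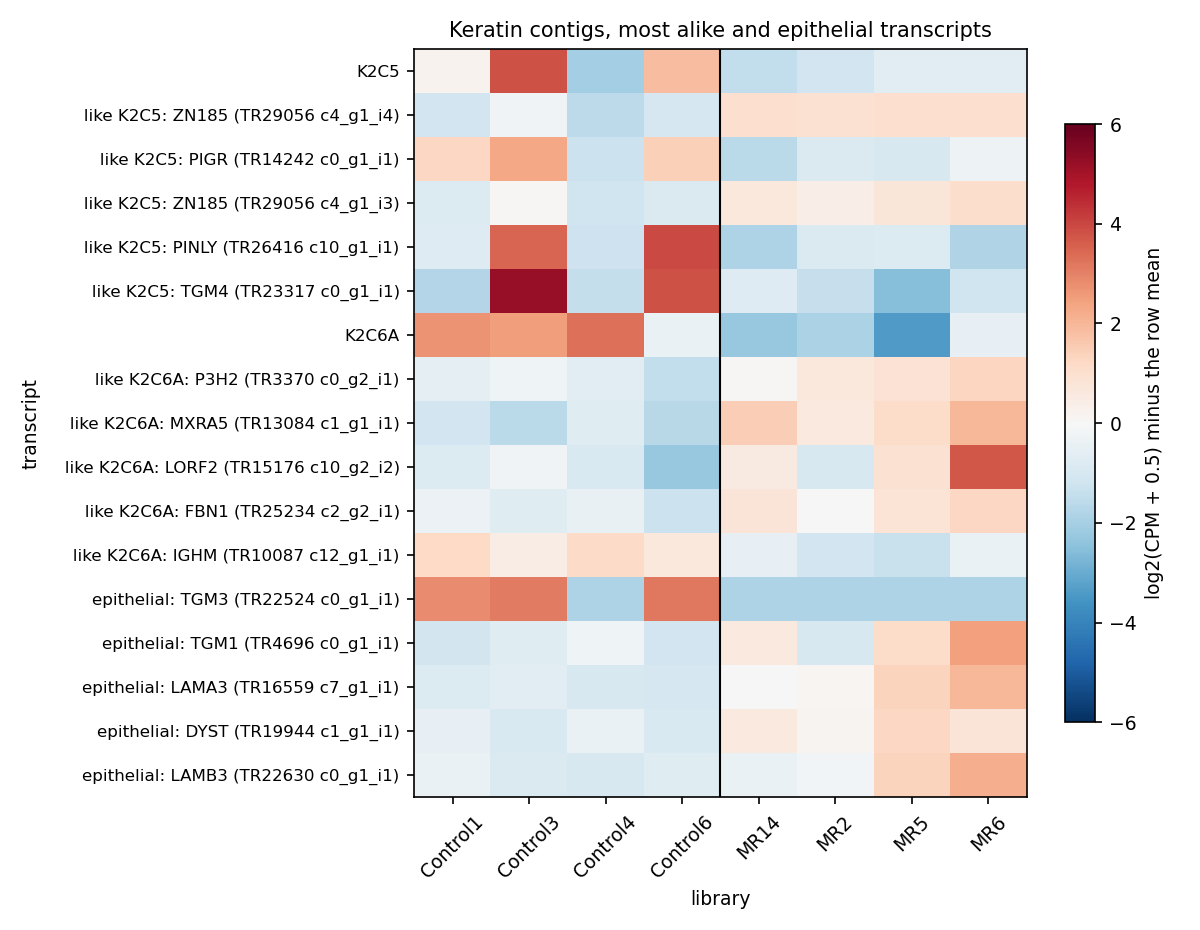
Log2(CPM + 0.5) of K2C5, K2C6A, the transcripts most like each and the epithelial transcripts described next, as colour relative to the mean of each transcript over the 8 libraries, with libraries in columns. The PINLY contig TR26416 c10_g1_i1 and TGM4 follow K2C5 in being high in Control3 and Control6. PIGR is nearly as high in Control1 as in Control6, and IGHM follows K2C6A in being higher in control limbs.

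The other epithelial transcripts were taken from lists of protein names in the study's table of differing transcripts. Their directions, low p-values, calls and lack of overlap are therefore not independent evidence. None of the transcripts in these lists passed an FDR of 0.05 by edgeR's quasi-likelihood test. The epithelial adhesion list held LAMA3 and LAMB3, chains of the laminin that anchors basal keratinocytes, and DYST (dystonin), which in its epithelial form links keratin filaments to hemidesmosomes. All 3 had higher CPM in every repeatedly amputated limb than in any control limb, an arrangement found for 3.29% of the contigs tested. For LAMB3 the groups nearly met, at 161 CPM in MR14 and 157 CPM in Control1. All 3 had an unadjusted p under 0.05 in that direction, against 6.47% of all contigs, and an FDR between 0.225 and 0.334. By edgeR's exact test 2 of the 3 passed an FDR of 0.05 (1.14% of all contigs), and by DESeq2's Wald test all 3 passed (2.32% of all contigs).

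LAMA3 had between 31.2 and 39.4 CPM in control limbs, and 66.2, 70.4, 161 and 261 CPM in MR14, MR2, MR5 and MR6. LAMB3 had between 109 and 157 CPM in control limbs, and 161, 187, 527 and 938 CPM in the same order. DYST had between 5.83 and 8.72 CPM in control limbs, and 17.7, 12.9, 27.7 and 20.3 CPM. The log2 differences were 2.00, 1.84 and 1.45. The epithelial adhesion transcripts and the keratins thus had opposite signs in these limbs. MR6 held the highest value of its group for LAMA3, LAMB3, K2C6A and K2C5, whereas DYST was highest in MR5.

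The epidermal cross-linking list held transglutaminases, enzymes that join proteins. TGM4 is in it by its family name, although it is known from the mammalian prostate. TGM1, the form of the mammalian cornified layer, had between 21.9 and 41.0 CPM in control limbs and 72.6, 24.8, 103 and 271 CPM in MR14, MR2, MR5 and MR6. Its groups overlapped through MR2, and its log2 difference was 2.04 with an FDR of 0.345 by edgeR's quasi-likelihood test. TGM3, which cross-links hair and epidermal proteins in mammals, had 12.2 CPM in Control1, 15.2 in Control3 and 15.5 in Control6, and it was at 0 in Control4 and in every repeatedly amputated limb. It did not pass the filter. TGM4 had a log2 difference of -5.72 with an FDR of 0.344 by the same test. By the same test TGM1 was higher and TGM4 lower at an unadjusted p under 0.05 (6.47% and 4.67% of all contigs). Both passed by DESeq2's Wald test (2.32% of all contigs) and neither by edgeR's exact test (1.14%).

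The other intermediate filaments in the table were those of muscle and nerve. Both desmin contigs (DESM, the filament of muscle) had higher means after repeated amputation, with log2 differences of 3.64 and 3.76, as had nestin (NEST, of muscle and neural progenitors) with 1.75. Their FDR lay between 0.324 and 0.393 by edgeR's quasi-likelihood test. By that test all 3 were higher at an unadjusted p under 0.05, against 6.47% of all contigs. By DESeq2's Wald test 1 of the 3 passed (2.32% of all contigs), and none passed by edgeR's exact test (1.14%). This list too was drawn from the study's table of differing transcripts, so these calls are not independent evidence. For all 3 the groups overlapped. Peripherin (PERI, of peripheral neurons) was at 0 in every control limb, in MR14 and in MR2, had 1.02 CPM in MR5 and 9.74 CPM in MR6, and did not pass the filter.

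Transcripts of other tissues are given beside the keratins for the samples' makeup. The muscle, cartilage and immunoglobulin lists were all drawn from the study's table of transcripts that differed in these libraries, so their directions and low p-values follow from that choice and are not independent evidence. All 61 tested muscle transcripts had an unadjusted p under 0.05 and were higher after repeated amputation (6.47% of all contigs in that direction). Of the 120 listed, tested or not, 31 had no overlap between the groups, and 12 were at 0 in every control limb. The share without overlap in that direction, 3.29%, covers tested contigs only, so it is not a background for the 120. None passed an FDR of 0.05 by edgeR's quasi-likelihood test, 11 passed by edgeR's exact test (1.14% of all contigs) and 35 by DESeq2's Wald test (2.32%). The median log2 difference of the tested muscle transcripts was 4.19, with -0.01 for all contigs tested, a gap from which nothing is read, since the list was chosen on this contrast. In repeatedly amputated limbs the order of the muscle sum, MR5, MR14, MR2 and MR6 from high to low, was the reverse of that of K2C6A, whereas in control limbs Control4 had both the highest muscle sum and the most K2C6A.

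Cartilage transcripts summed to between 1.37 and 2.30 CPM in control limbs and between 11.8 and 187 CPM in repeatedly amputated limbs. All 10, including those under the filter, were higher there without overlap. The like share of 3.29% covers tested contigs only, so it is not a background for the 10. CO9A2, LECT1 and PGCA each gave more than 1 of the 10. Some of the 10 rested on few counts. The LECT1 contig TR23600 c1_g1_i1 had 1 count in Control1 and 1 in MR14. The PGCA contig TR18165 c0_g1_i1 was at 0 in every control limb but had only 2 or 3 counts in MR14, MR2 and MR6. By edgeR's quasi-likelihood test none of the 3 that passed the filter had an FDR under 0.05, and all 3 had an unadjusted p under 0.05. By edgeR's exact test all 3 passed (1.14% of all contigs), and by DESeq2's Wald test 1 passed (2.32%), while the other 2 had no adjusted p there. Of the 10, 2 were at 0 in every control limb. The 7 immunoglobulin transcripts summed to between 529 and 931 CPM in control limbs and between 159 and 292 CPM in repeatedly amputated limbs, with 5 of 7 lower without overlap (3.08% of all contigs). By edgeR's quasi-likelihood test none had an FDR under 0.05, though all 7 were lower at an unadjusted p under 0.05 (4.67% of all contigs in that direction). By edgeR's exact test 6 passed (1.14%), as did 6 by DESeq2's Wald test (2.32%), which gave no adjusted p for 1 of the 7. With TMM computed without the muscle transcripts, K2C6A kept groups that did not overlap and K2C5 groups that did. The part that these tissues play in the keratin values was not tested. That scaling could not test it, since a scaling factor multiplies every contig of a library alike.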

How the data were processed

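The authors sequenced paired-end 50 bp libraries of limb stump RNA, built a transcriptome with Trinity, named its contigs with Trinotate and quantified them with RSEM. CASAVA 1.8.2 is named in the submitters' processing notes. The authors deposited RSEM expected counts, unnormalized, and FPKM values scaled between libraries by TMM. Columns name a group, so each was assigned to its group only, and the 4 libraries of a group came from separate animals. Of the expected counts, 91.5% were whole, and the others were rounded.

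Contigs kept by edgeR's filterByExpr were TMM-scaled and tested by edgeR 4.0.16's quasi-likelihood F-test (robust, R 4.3.3) with Benjamini-Hochberg adjustment. Tests were first tested on simulated data. DESeq2 1.42.0, edgeR's exact test, limma 3.58.1 on log2(FPKM + 1) and log2(FPKM + 0.1), other scalings and filters, and each library left out were alternatives. Differences of means and of medians of log2 CPM were added after the data were seen. DESeq2 gave no adjusted p for 6424 of the 32757 contigs, which were kept as missing. These count as not called in the DESeq2 share of all contigs, so that share is lower than among contigs with an adjusted p.

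Protein names came from the study's table of 912 differing transcripts, by matching group mean FPKM within 1e-05 (892 matched exactly 1 contig, 490 with a protein name). Named were both keratins, contigs of their components, the 3 epithelial and filament lists, and the 5 most alike named contigs for each keratin (log2 CPM, prior count 2). The members and lists were chosen with earlier results of these data known. The study's fold changes and p-values were not used.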

Additional observations from a re-analysis of the deposited data

Results flagged for a closer look

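A library was singled out where its gap to the nearest other library of its group, divided by the range of the group, was above the 95% critical value of Dixon's test. This was done for 62 groups of 4 libraries and singled out 7. For independent groups of normally distributed values chance alone gives about 1 in 20. The values here were CPM without a log, and all 7 stood out by a high value, so nothing is read from how many were singled out. In control limbs the summed CPM of both keratins was 3864 in Control3 and between 881 and 1382 in the others (gap over range 0.832). The muscle sum of control limbs was 1376 CPM in Control4 and between 102 and 318 in the others (0.830), and the desmin contig TR26609 c1_g1_i1 had 19.5 CPM in Control4 and between 0.481 and 2.28 in the others (0.905). Control4 was also the control limb with the most K2C6A and the least K2C5.

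In repeatedly amputated limbs the mucin and secretory sum was 359 CPM in MR5 and between 39.9 and 93.9 in the others (0.830), and the cartilage sum was 187 CPM in MR5 and between 11.8 and 20.7 in the others (0.949). PERI had 9.74 CPM in MR6 and between 0 and 1.02 in the others (0.896), and LORF2 had 96.9 CPM in MR6 and between 3.28 and 13.5 in the others (0.891). MR6 was the repeatedly amputated limb with the most of both keratins, and MR5 the limb with the least K2C6A.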

How the results depend on the processing

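Both keratins, their sum and their balance kept their sign under every alternative run for them, 18 each for K2C6A and K2C5, 14 for the sum and 11 for the balance. The ranges over left-out libraries were -4.93 to -3.78 on the log2 scale for K2C6A, -3.59 to -1.67 for K2C5, -3.80 to -2.86 for the sum and -3.24 to -0.71 for the balance. TR19344 c1_g1_i1 passed the threshold under none of 18 alternatives. Counts of calls depended on the test. Against 4 contigs at an FDR under 0.05 by edgeR's quasi-likelihood test, edgeR's exact test gave 374, DESeq2's Wald test 759, a filter of at least 10 summed counts 9, no filter 21, limma on FPKM 11 with a pseudocount of 1 and 16 with a pseudocount of 0.1, and leaving out 1 library gave 2 (without MR5) to 14 (without Control1). Against 3648 contigs at an unadjusted p under 0.05, a filter of at least 10 summed counts gave 6420 and no filter 7266, and leaving out 1 library gave 2632 (without MR5) to 4552 (without MR2). The cause was not tested. Of the contigs at an unadjusted p under 0.05, 41.9% were lower after repeated amputation, against 57.7% and 58.1% by limma on the FPKM scales. No paired analysis was run, because the limbs came from separate animals and the study describes no pairing of control with repeatedly amputated limbs. The sample labels carry no replicate number, and the column names of the groups share only the number 6. With 4 limbs a group and the SD of the control limbs, the size of the K2C5 difference is known only loosely, and counting error is not the limit.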
